A study of Homo sapiens with 95 samples.

Results

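CYP1A1, CYP1A2 and CYP1B1 make up the human CYP1 family of cytochrome P450 enzymes, and their rows were taken by gene symbol from the count tables of all 95 samples. They are 3 of 27978 genes listed there, and like 22764 of these genes each of the 3 had a read in 1 sample or more. CYP1 enzymes add oxygen to flat ring compounds, such as the polycyclic aromatic hydrocarbons of tobacco smoke, to some drugs and to estrogens. CYP1A1 and CYP1B1 act in many epithelia, the airway included, and can turn a hydrocarbon such as benzo(a)pyrene into products that react with DNA. CYP1A2 is chiefly an enzyme of the liver. The genes are textbook targets of the aryl hydrocarbon receptor (AhR, gene AHR), which waits in the cytoplasm with HSP90 chaperones, moves to the nucleus when it binds a ligand, pairs there with ARNT and binds DNA at elements built around the letters GCGTG. The AhR repressor (AHRR) and TIPARP are themselves targets of the receptor and dampen its activity.

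The samples are sparse full length (SFL) RNA-seq libraries, a barcoded and pooled method, of AALE cells, human bronchial epithelium that was immortalized in culture. Every sample belonged to 1 of 8 cell lines derived from AALE. CRISPR knockout of FAT1 or of CDKN2A was compared with cells that received the Cas9-EGFP plasmid PX458 and no guide, called GFP. Overexpression of NRF2 (gene NFE2L2), FGFR1, NRG1 or PIK3CA was compared with an empty vector that carries the reporter HcRed, called HcRed. Each line received 24 µg/ml cigarette smoke condensate (CSC), 173 µM benzo(a)pyrene (BaP), 490 µM of the tobacco nitrosamine NNK, or DMSO. BaP is a polycyclic hydrocarbon and a known AhR ligand, CSC is a mixture that holds such hydrocarbons, and NNK is a nitrosamine without fused rings of this kind. There were 3 samples for 31 of the 32 combinations of line and treatment, and 2 for FGFR1 with CSC (replicates 2 and 3). The groups hold replicates of 1 line each, whether a line was a clone or a pool is not given in the sources used here, and p-values therefore measure the spread between these samples only. The length of the exposure is not given in the sources used here either. The doses differ and are in different units, so values of different chemicals compare these exposures and not potency.

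The tables held 287446 to 2116383 counted reads per sample, so that 3 counts corresponded to 1.42 to 10.4 CPM (counts-per-million), and intervals given for counts cover counting error only. The targeted genes followed the labels. Over all treatments, FAT1 and CDKN2A lay below every GFP sample in their knockout lines (ratio of medians 0.262 and 0.475), and NFE2L2, FGFR1, NRG1 and PIK3CA lay above every HcRed sample in theirs (ratio of medians 6.60, 22.9, 328 and 6.21). All 6 basal airway markers (KRT5, KRT14, KRT17, TP63, ITGA6 and LAMB3) had reads in every sample, with a summed level of 3390.2 to 10966 CPM. The hepatocyte markers ALB, APOA1 and TTR summed to at most 7.18 CPM in any sample, with TTR at 0 in all of them, and the secretory markers SCGB1A1, MUC5AC and MUC5B to at most 5.65 CPM.

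CYP1A1 and CYP1A2 are neighbours that point away from each other. On GRCh37, the build of the count tables, CYP1A1 lies on the minus strand of chromosome 15 at chr15:75011883-75017877 with 7 exons and a canonical transcript of 2603 bases. CYP1A2 lies on the plus strand at chr15:75041186-75048948, with 7 exons and 3132 bases. CYP1B1 lies apart on the minus strand of chromosome 2 at chr2:38294116-38337044, with 3 exons and 5217 bases. The reads were 75 bases long, and of 3058 windows of that length in the CYP1A2 transcript 0 were identical to a CYP1A1 window and 23 came within 3 mismatches. CYP1B1 windows had at least 20 mismatches to any CYP1A1 window. Most of the CYP1A2 transcript and all of the CYP1B1 transcript were therefore distinct from CYP1A1, whereas a short stretch of CYP1A1 and CYP1A2 was close to being shared. CYP1A2 was not compared with CYP1B1, and no window was compared with other genes.

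The 250 bases before the start of CYP1A1 and of CYP1A2 are shown because the 2 neighbours differ in whether they hold the AhR core there. They come from RefSeq on GRCh38.p14, chr15:74725529-74725778 on the minus strand for CYP1A1 and chr15:74748595-74748844 on the plus strand for CYP1A2, and capitals mark the letters GCGTG or, on the other strand, CACGC.
CYP1A1: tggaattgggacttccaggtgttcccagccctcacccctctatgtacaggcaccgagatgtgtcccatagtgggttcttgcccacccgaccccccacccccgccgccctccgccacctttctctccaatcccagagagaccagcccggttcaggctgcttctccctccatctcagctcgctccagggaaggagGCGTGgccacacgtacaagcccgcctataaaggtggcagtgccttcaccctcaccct
CYP1A2: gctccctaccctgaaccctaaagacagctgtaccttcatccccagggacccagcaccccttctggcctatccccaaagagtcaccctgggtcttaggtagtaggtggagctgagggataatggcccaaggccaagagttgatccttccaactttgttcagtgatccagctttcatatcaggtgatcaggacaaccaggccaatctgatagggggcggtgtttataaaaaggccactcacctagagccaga

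CYP1A1 held 1 core match in these 250 bases, 57 bases before its start, and CYP1A2 held 0. Of 35116 RefSeq promoters, 32.2% held at least 1 match on either strand. Of 8 other AhR target genes listed there, 5 held a match in at least 1 of their promoters. AHRR, TIPARP and UGT1A6 had more than 1 promoter listed, so this count by gene is not like the share by promoter. More matches lay farther upstream of CYP1A1. In the 2000 bases upstream on GRCh37, CYP1A1 held 11 core matches and 5 matches to the longer form TNGCGTG, counts that 0.578% and 0.0398% of 20078 genes reached. CYP1A2 held 1 and 0 in the same stretch, against a median gene with 2 and 0. Each long match is also a core match. A match says only that the letters are there, and no binding was measured.

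The starts of the 2 genes are 23308 bases apart, and this gap held 34 core matches, 12 of them of the longer form. The 300-base window with the most long matches is shown because it is the densest part of the sequence that both genes share upstream. It is read on the minus strand of chr15:75018696-75018995 (GRCh37), 819 to 1118 bases before the start of CYP1A1, and held 4 core matches, 3 of them long, which 0.569% of the 23009 windows of this length in the gap reached. Capitals mark the core as before.
CYP1A1 upstream window: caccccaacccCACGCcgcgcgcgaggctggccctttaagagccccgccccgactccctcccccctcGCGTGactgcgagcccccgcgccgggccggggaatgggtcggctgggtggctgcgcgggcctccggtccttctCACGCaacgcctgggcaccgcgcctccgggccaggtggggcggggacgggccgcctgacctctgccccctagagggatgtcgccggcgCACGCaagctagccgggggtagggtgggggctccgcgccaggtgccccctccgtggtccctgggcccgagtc

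**Figure D1:**
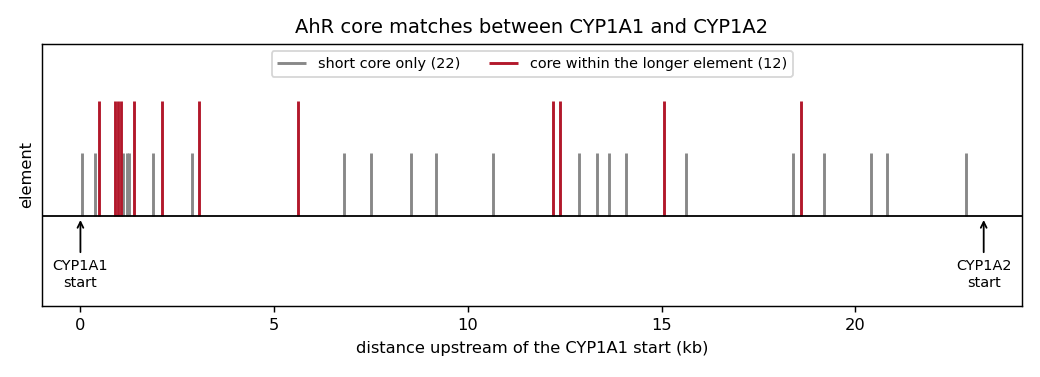
Matches to the letters GCGTG on either strand in the gap between CYP1A1 and CYP1A2, plotted by their distance in kilobases from the CYP1A1 start, with the longer form TNGCGTG marked apart. Of 34 matches, 11 lie within 2000 bases of the CYP1A1 start, and the end next to CYP1A2 holds 1 in the same length.

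CYP1A1 was close to silent with DMSO and strongly higher after CSC or BaP. Its lowest, median and highest levels, in CPM after TMM normalization, were 0, 7.55 and 18.5 CPM over the 24 DMSO samples and 124, 388 and 790.3 CPM over the 23 CSC samples. They were 104, 360.1 and 826 CPM with BaP (n = 24) and 32.7, 52.3 and 112 CPM with NNK (n = 24). No treated sample of any line overlapped a DMSO sample of any line, and the lowest CSC sample lay above the highest NNK sample. CYP1B1 started higher and rose less. Its lowest, median and highest levels were 44.3, 68.3 and 116 CPM with DMSO, 276, 819 and 1176 CPM with CSC, 317, 697 and 1047 CPM with BaP and 120.2, 183 and 433 CPM with NNK. Here too every treated sample lay above every DMSO sample, whereas the NNK samples overlapped those of CSC and BaP. In bulk samples, fewer expressing cells and less RNA per cell cannot be told apart.

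**Figure D2:**
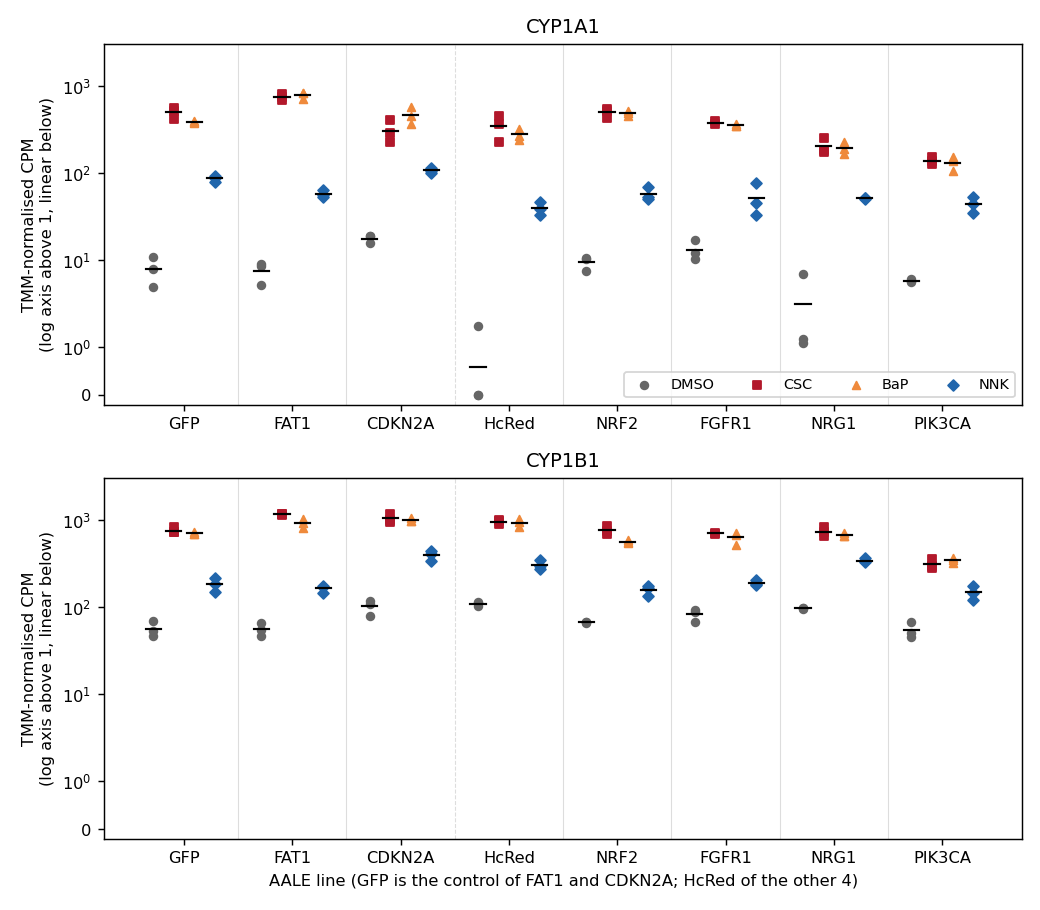
TMM-normalised CPM of CYP1A1 and CYP1B1 in every sample, by line and chemical, on an axis that is logarithmic above 1 and linear below. For CYP1A1 the DMSO samples lie between 0 and 18.5 CPM, below every NNK sample (32.7 to 112). For CYP1B1 the DMSO samples lie between 44.3 and 116 CPM and the black bars are line means.

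With DMSO, CYP1A1 measured 10.6, 4.80 and 7.75 in GFP, 8.39, 8.88 and 5.12 in FAT1, and 18.5, 18.5 and 15.3 in CDKN2A (CPM, replicates in order). Among the vector lines it measured 1.72, 0 and 0 in HcRed, 10.2, 7.35 and 10.5 in NRF2, 10.1, 11.8 and 17.0 in FGFR1, 6.84, 1.21 and 1.11 in NRG1, and 5.93, 5.54 and 5.66 in PIK3CA. CDKN2A was highest, with 21, 18 and 17 reads, and overlapped FGFR1, while HcRed was lowest with 2, 0 and 0 reads. NRG1 had 9, 1 and 1 reads, so that the baseline of these last 2 lines rests on few reads. Neighbours in the order of the line means overlapped all the way down, although the highest mean was 30.4 times the lowest.

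With CSC, CYP1A1 measured 511, 547 and 413 in GFP, 790.3, 679 and 739 in FAT1, and 224, 282 and 406 in CDKN2A, in CPM. The vector lines measured 447, 365 and 223 in HcRed, 535, 427 and 513 in NRF2, 388 and 359.6 in FGFR1, 179.9, 171 and 250.2 in NRG1, and 124, 136 and 150.3 in PIK3CA. FAT1 stood above every sample of every other line, and PIK3CA stood below them all. NRF2 and GFP overlapped each other, as did FGFR1, HcRed, CDKN2A and NRG1 each with the next in the order of means, and the highest mean was 5.38 times the lowest.

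With BaP, CYP1A1 measured 391, 377 and 376 in GFP, 826, 815 and 706 in FAT1, and 449, 565 and 359 in CDKN2A, in CPM. The vector lines measured 239.5, 263 and 319.7 in HcRed, 516, 487 and 450.02 in NRF2, 361, 342 and 339.6 in FGFR1, 163, 186 and 225 in NRG1, and 104, 136 and 149 in PIK3CA. FAT1 was again highest and PIK3CA lowest, both apart from all other lines, and the highest mean was 6.02 times the lowest. The order below FAT1 was NRF2, CDKN2A, GFP, FGFR1, HcRed and NRG1, of which NRF2, CDKN2A and GFP overlapped and the rest were apart from their neighbours.

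With NNK, CYP1A1 measured 85.6, 92.4 and 78.8 in GFP, 62.5, 55.7 and 52.7 in FAT1, and 112, 99.9 and 105 in CDKN2A, in CPM. The vector lines measured 38.4, 32.9 and 45.4 in HcRed, 52.0, 50.1 and 67.7 in NRF2, 32.7, 45.0 and 76.3 in FGFR1, 51.5, 49.8 and 50.9 in NRG1, and 34.0, 43.96 and 52.6 in PIK3CA. CDKN2A was now highest, GFP next, and each was apart from the line below it. FAT1, highest with CSC and BaP, lay in a run of 6 lines that overlapped their neighbours, and the highest mean was 2.71 times the lowest.

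CYP1B1 had a baseline in every line. With DMSO it measured 46.4, 52.8 and 69.0 in GFP, 54.1, 65.7 and 46.1 in FAT1, and 116, 78.9 and 108 in CDKN2A, in CPM. The vector lines measured 109, 102 and 113 in HcRed, 67.5, 64.9 and 67.4 in NRF2, 92.2, 66.7 and 86.0 in FGFR1, 97.3, 94.7 and 97.4 in NRG1, and 50.4, 44.3 and 66.0 in PIK3CA. HcRed, lowest for CYP1A1, was highest for CYP1B1 and overlapped CDKN2A, and PIK3CA was lowest but overlapped FAT1, GFP and NRF2. The highest mean was only 2.02 times the lowest.

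With CSC, CYP1B1 measured 712, 719.6 and 819 in GFP, 1168, 1173 and 1121 in FAT1, and 994, 929.8 and 1176 in CDKN2A, in CPM. The vector lines measured 968, 979.8 and 885 in HcRed, 745, 693 and 835 in NRF2, 681 and 711 in FGFR1, 652, 718 and 822 in NRG1, and 276, 293 and 356 in PIK3CA. FAT1, CDKN2A and HcRed each overlapped the next and stood above the other 5 lines, and PIK3CA stood far below all. With BaP the values were 693, 685 and 721 in GFP, 1031, 796 and 911 in FAT1, and 1047, 957 and 961 in CDKN2A. In the vector lines they were 1018, 929 and 829 in HcRed, 583, 536 and 554 in NRF2, 666, 701 and 515 in FGFR1, 648, 644 and 705 in NRG1, and 317, 344 and 366 in PIK3CA. The same 3 lines, CDKN2A, HcRed and FAT1, were on top, and PIK3CA was again apart at the bottom.

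With NNK, CYP1B1 measured 184, 147 and 216 in GFP, 169.7, 145 and 173 in FAT1, and 433, 339 and 404 in CDKN2A, in CPM. The vector lines measured 290.4, 268 and 340.4 in HcRed, 132, 171 and 163 in NRF2, 183, 176 and 203 in FGFR1, 331, 327 and 358 in NRG1, and 175, 142 and 120.2 in PIK3CA. CDKN2A, NRG1 and HcRed overlapped each other in turn and lay above the other 5 lines, which overlapped in turn from FGFR1 down to PIK3CA. The highest CYP1B1 mean was 3.74 times the lowest with CSC, 2.89 times with BaP and 2.69 times with NNK.

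Levels of the 2 genes were set side by side only per kilobase of canonical transcript. The median level per kilobase with DMSO was 2.901 CPM for CYP1A1 and 13.1 CPM for CYP1B1, a ratio of 0.222. This ratio was 0.9499 with CSC, 1.04 with BaP and 0.572 with NNK. CYP1B1 was thus the main CYP1 transcript at baseline, and the 2 were about level after CSC and BaP. By line, CYP1A1 per kilobase ranged from 0.550 (NRG1) to 1.31 (GFP) times CYP1B1 with CSC and from 0.576 (NRG1) to 1.74 (NRF2) times with BaP. With NNK the ratio stayed below 1 in all 8 lines, from 0.260 (HcRed) to 0.941 (GFP).

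Which genes a chemical changed over all genotypes was tested with limma on voom-transformed counts, with genotype as a term, Benjamini-Hochberg adjustment over 14384 genes with a mean count above 1, and a threshold of 0.05. CYP1A1 rose 50.4-fold with CSC, 49.4-fold with BaP and 8.34-fold with NNK, each time the largest rise among the genes tested. On the log2 scale the differences were 5.66 (95% interval 5.15 to 6.16, SE 0.25), 5.63 (95% interval 5.12 to 6.13, SE 0.25) and 3.06 (95% interval 2.53 to 3.59, SE 0.27), with adjusted p = 4.92e-44, 3.16e-43 and 2.08e-19. CYP1B1 rose 10.4-fold, 9.43-fold and 3.08-fold, the rise of rank 2, 2 and 8. Its log2 differences were 3.37 (95% interval 3.20 to 3.55, SE 0.089), 3.24 (95% interval 3.06 to 3.41, SE 0.089) and 1.62 (95% interval 1.43 to 1.82, SE 0.10), with adjusted p = 1.59e-69, 1.10e-66 and 2.73e-30. Both members in the fit rose with each chemical. Over all genes tested, 28.0% were higher and 27.1% lower with CSC, 26.1% and 24.9% with BaP, and 26.1% and 25.7% with NNK.

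The interval of CSC against BaP spanned 0 for both genes. The difference of CSC from BaP was 0.03 (95% interval -0.47 to 0.54, adjusted p = 0.954) on the log2 scale for CYP1A1 and 0.14 (95% interval -0.04 to 0.31, adjusted p = 0.327) for CYP1B1, with 16.5% of genes past the threshold. The CYP1B1 difference passed with edgeR's quasi-likelihood test (0.15, adjusted p = 0.0467). NNK gave lower levels than either. CSC exceeded NNK by 2.60 (95% interval 2.08 to 3.11, adjusted p = 1.84e-15) for CYP1A1 and 1.75 (95% interval 1.56 to 1.94, adjusted p = 6.15e-35) for CYP1B1, where 23.7% of genes differed. BaP exceeded NNK by 2.56 (95% interval 2.05 to 3.08, adjusted p = 5.62e-15) and 1.61 (95% interval 1.42 to 1.80, adjusted p = 1.75e-31), where 11.8% did. These log2 contrasts set CSC at 24 µg/ml beside BaP at 173 µM and NNK at 490 µM, and each shares 1 set of samples with another.

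Some markers of other cell types also had higher medians with a chemical than with DMSO. Of 4 fibroblast markers 2 had a mean count of 1 or more, COL1A1 and DCN, and the list had a median sum of 16.9 (7.54 to 34.9) CPM with DMSO, 33.1 (14.1 to 54.7) with CSC, 27.3 (12.5 to 62.6) with BaP and 31.5 (12.1 to 51.6) with NNK, with the lowest and highest sample in brackets. COL3A1 had reads in 2 samples and PDGFRA in 14. Of 3 immune markers 1 had such a count, CD68, and the medians were 11.9 (4.83 to 17.997), 23.2 (3.42 to 38.8), 13.7 (0 to 31.6) and 11.7 (2.74 to 23.6) CPM in the same order. The immune marker CD3E was at 0 in all samples, and PTPRC had reads in 5 samples. The groups overlapped for both lists, and their part in the CYP1 differences was not tested.

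CYP1A2 gave 49 reads in all 95 samples together, and every one came from a chemical-treated sample. With CSC there were 18 reads in 11 of 23 samples, with BaP 20 in 9 of 24, and with NNK 11 in 7 of 24. With DMSO there were 0 in 24 samples, which at 25725906 counted reads allows up to 0.117 CPM. Set against that floor of 3 counts over the group, the pooled level was 6.91 times as high with CSC, 8.21 times with BaP and 4.604 times with NNK. These ratios leave out the counting error of the 18, 20 and 11 treated reads, so they are not lower limits. The mean count was too low for the fit, so the mean CPM was compared by 100000 permutations of the chemical labels within genotype (two-sided). The difference was 0.831 CPM with CSC (permutation p = 1.10e-04, adjusted over the 3 chemicals 3.30e-04), 0.868 CPM with BaP (permutation p = 0.00144, adjusted 0.00216) and 0.540 CPM with NNK (permutation p = 0.00731, adjusted 0.00731).

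CYP1A2 reads were uneven over the lines. CDKN2A held 19 of the 49, with 0, 1 and 2 with CSC, 6, 4 and 1 with BaP and 0, 2 and 3 with NNK. GFP held 9, of which 1, 1 and 5 came with CSC. HcRed held 7, NRF2 5, PIK3CA 4, FAT1 3, NRG1 2 and FGFR1 0. The order of the lines was thus not that of CYP1A1. As a percent of the CYP1A1 reads of the same samples, CYP1A2 reads came to 0.887% in CDKN2A and to 0.0772% in FAT1, which had the most CYP1A1 reads (3884). By chemical they came to 0.208% with CSC, 0.256% with BaP and 0.870% with NNK. No test was made over all lines together. In limma-voom fits of a line against another under the same treatment, CYP1A2 was rarely above the filter, and no difference passed. With BaP, CDKN2A differed from GFP by 2.16 on the log2 scale (adjusted p = 0.0518). With CSC the differences from GFP were 0.18 in CDKN2A (adjusted p = 0.893) and -1.12 in FAT1 (adjusted p = 0.444). GFP differed from HcRed by 1.04 with CSC (adjusted p = 0.460). Within every line, all 3 DMSO samples had 0 reads of CYP1A2, so no fitted fold over DMSO is given for it.

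Within every single line, both genes rose with every chemical. Each line was compared with its own DMSO samples in a limma-voom fit of those samples only, and CYP1A1 and CYP1B1 each passed in 8 of 8 lines with CSC, in 8 of 8 with BaP and in 8 of 8 with NNK. Over the same fits, 8.59%, 5.34% and 5.60% of all gene tests were called higher, with 4.88% to 12.7% by line for CSC, 2.67% to 9.73% for BaP and 3.03% to 9.87% for NNK. The largest of the 24 adjusted p-values of limma-voom was 1.06e-05 for CYP1A1 and 6.94e-09 for CYP1B1. The same HcRed, GFP or other DMSO samples serve the 3 chemicals of a line, so these comparisons are not independent.

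In the 7 lines other than HcRed, the log2 rise of CYP1A1 ranged from 4.18 (SE 0.22) in CDKN2A to 6.60 (SE 0.30) in FAT1 with CSC. With BaP it ranged from 4.40 (SE 0.34) in PIK3CA to 6.67 (SE 0.30) in FAT1, and with NNK from 2.02 (SE 0.31) in FGFR1 to 4.02 (SE 0.55) in NRG1. Among these 7 lines FAT1 had the largest fitted response to CSC (96.8-fold) and BaP (102-fold) but not to NNK. HcRed had 2 reads of CYP1A1 with DMSO, so its fitted rise depends on the prior count and the ratio of pooled CPM is given instead. That ratio was 507 with CSC (exact 95% counting interval 140.2 to 4194), 379.6 with BaP (105 to 3139.8) and 55.1 with NNK (14.7 to 463). NRG1, with 11 DMSO reads, gave 58.6 (32.4 to 118), 50.9 (28.2 to 102) and 14.2 (7.69 to 29.0). The lower limits of HcRed with CSC and BaP lay above the fitted folds of FAT1 but below the upper ends of the FAT1 95% intervals (146 and 156). The HcRed limits leave out the spread between samples, and the difference between these 2 lines was not tested. The width of these intervals follows from the few DMSO reads.

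CYP1B1, which had reads in every DMSO sample, gave tighter values. Its log2 rise ranged from 2.58 (SE 0.13) in PIK3CA to 4.43 (SE 0.12) in FAT1 with CSC and from 2.72 (SE 0.13) in PIK3CA to 4.11 (SE 0.14) in FAT1 with BaP. With NNK it ranged from 1.22 (SE 0.13) in FGFR1 to 1.93 (SE 0.11) in CDKN2A. NRF2 had 1.23 with NNK as well. FAT1 and PIK3CA thus marked the ends for CSC and BaP, and FGFR1 and CDKN2A for NNK. CYP1B1 overlaps the antisense gene CYP1B1-AS1, and whether strand was used in counting is not given in the sources used here. That gene had at most 7 reads in a sample, against 45 to 1458 for CYP1B1.

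**Figure D3:**
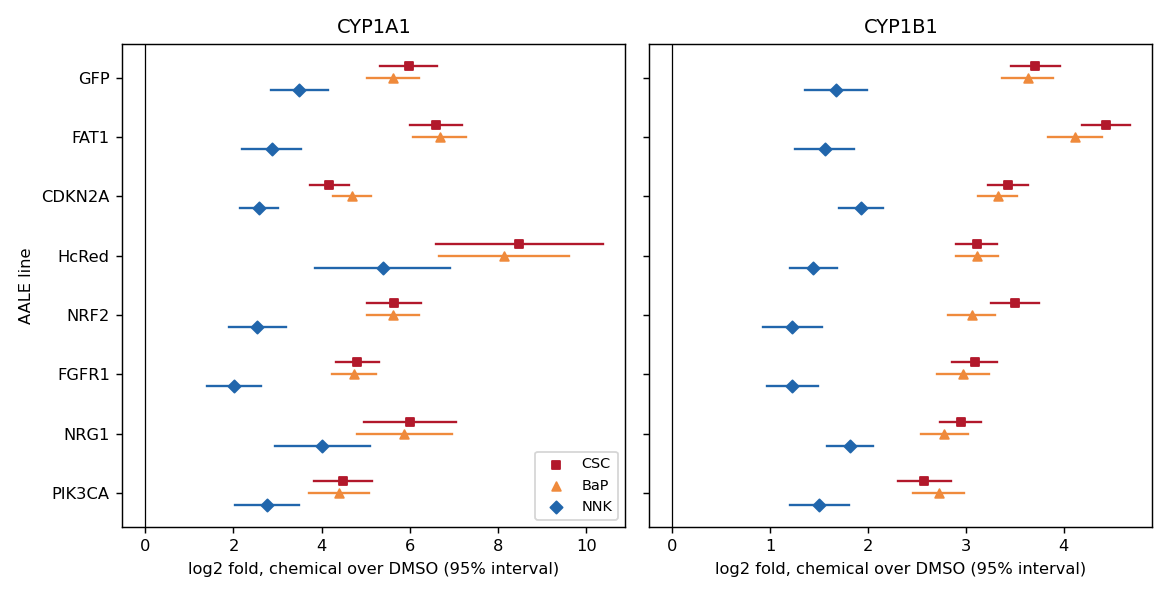
Log2 fold of each chemical over DMSO for CYP1A1 and CYP1B1 within each of the 8 lines, with 95% intervals from limma-voom. All points lie above 0, CYP1B1 between 1.22 and 4.43, and the wide intervals of CYP1A1 in HcRed go with 2 DMSO reads.

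Whether a genotype changed the family was asked by comparing each line with its control under the same treatment (limma-voom, only the samples compared, adjusted over all genes tested). Of 24 such comparisons, CYP1A1 was higher in 8 and lower in 6, and CYP1B1 was higher in 6 and lower in 13. By DESeq2's Wald test CYP1A1 passed in 6 of the 24. How common such calls were depended on the line, and the share of all genes called is given beside each.

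Loss of FAT1, which encodes a large protocadherin, went with higher CYP1A1 and CYP1B1 under CSC and BaP. With CSC the log2 difference from GFP was 0.59 (SE 0.064, adjusted p = 1.41e-12) for CYP1A1 and 0.65 (SE 0.049, adjusted p = 1.70e-20) for CYP1B1, with 25.3% of genes called. With BaP it was 1.06 (SE 0.086, adjusted p = 6.94e-21) and 0.45 (SE 0.074, adjusted p = 4.89e-07), with 21.4% called, and in all 4 cases every FAT1 sample lay above every GFP sample. With DMSO neither gene passed, at -0.02 (SE 0.41, adjusted p = 0.982) and -0.05 (SE 0.17, adjusted p = 0.851), with 26.3% called. With NNK the CYP1A1 difference was negative, at -0.63 (SE 0.20, adjusted p = 0.0154), and that of CYP1B1 was -0.16 (SE 0.14, adjusted p = 0.461), with 17.2% called. The NNK call on CYP1A1 was lost by DESeq2's Wald test (adjusted p = 0.162), by a fit of all 95 samples (adjusted p = 0.112) and in 4 of 6 fits that leave out a sample (without FAT1 replicate 2 or 3 or GFP replicate 1 or 2, adjusted p = 0.0594 to 0.0834).

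Loss of CDKN2A, which encodes cell cycle inhibitors, went with higher CYP1B1 under every treatment. The CYP1B1 differences from GFP were 0.81 (SE 0.15, adjusted p = 8.19e-06) with DMSO, 0.51 (SE 0.061, adjusted p = 2.62e-11) with CSC, 0.51 (SE 0.063, adjusted p = 2.24e-09) with BaP and 1.07 (SE 0.12, adjusted p = 8.55e-13) with NNK, and no CDKN2A sample overlapped a GFP sample. CYP1A1 did not follow it. It was higher with DMSO, by 1.15 (SE 0.35, adjusted p = 0.00665), and lower with CSC, at -0.66 (SE 0.10, adjusted p = 8.69e-08), and its differences were 0.23 (SE 0.097, adjusted p = 0.0599) with BaP and 0.24 (SE 0.16, adjusted p = 0.290) with NNK. This line differed broadly from GFP, with 37.2% of genes called with DMSO, 32.3% with CSC, 32.1% with BaP and 28.1% with NNK. The DMSO call on CYP1A1 was lost without GFP replicate 2 (adjusted p = 0.0528), in the fit of all 95 samples (adjusted p = 0.0739) and by DESeq2's Wald test (adjusted p = 0.0749), which also did not call the CSC difference (adjusted p = 0.0628). The BaP difference passed with edgeR's quasi-likelihood test (adjusted p = 0.0328), at a mean count of at least 10 (adjusted p = 0.0478) and without CDKN2A replicate 3 (adjusted p = 0.00129).

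The 4 overexpression lines share the HcRed samples, and HcRed had 2 reads of CYP1A1 with DMSO, so baseline values of CYP1A1 are given as ratios of pooled CPM with an exact 95% counting interval. The ratio to HcRed was 18.5 (4.79 to 158) in FGFR1, 13.5 (3.37 to 118) in NRF2, 7.89 (1.92 to 69.6) in PIK3CA and 5.12 (1.118 to 47.6) in NRG1. The GFP control line itself gave 10.9 (2.73 to 94.9). The low baseline thus set HcRed apart from the other control as well. limma-voom called FGFR1 (adjusted p = 0.00445), NRF2 (0.00315) and PIK3CA (0.0318) higher than HcRed and did not call NRG1 (0.447). Without HcRed replicate 3 the FGFR1 and NRF2 calls were lost, at adjusted p = 0.0800 and 0.0561. The PIK3CA call was lost in 5 of 6 fits that leave out a sample (without HcRed replicate 1 or 2 or 3 or PIK3CA replicate 1 or 2, adjusted p = 0.0507 to 0.208) and in the fit of all 95 samples (adjusted p = 0.0974). DESeq2's Wald test called neither NRF2 (adjusted p = 0.0773) nor PIK3CA (0.252).

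NRF2 overexpression went with higher CYP1A1 under CSC and BaP and with lower CYP1B1. NRF2 is the transcription factor of the antioxidant response, and its gene NFE2L2 was 2.91 higher than HcRed on the log2 scale with DMSO (SE 0.076). CYP1A1 was higher by 0.54 (SE 0.10, adjusted p = 1.10e-04) with CSC and by 0.89 (SE 0.089, adjusted p = 1.02e-13) with BaP, where its samples overlapped those of HcRed with CSC and not with BaP, and the difference with NNK was 0.58 (SE 0.24, adjusted p = 0.183). CYP1B1 was lower under all 4 treatments, with log2 differences of -0.71 (SE 0.14, adjusted p = 3.57e-04) with DMSO, -0.31 (SE 0.067, adjusted p = 8.04e-04) with CSC, -0.75 (SE 0.070, adjusted p = 2.30e-15) with BaP and -0.91 (SE 0.12, adjusted p = 4.49e-10) with NNK. NRF2 and HcRed samples of CYP1B1 did not overlap under any treatment. The GFP control line differed from HcRed in the same directions. Its CYP1A1 differences were 0.55 with CSC and 0.55 with BaP. Its CYP1B1 differences were -0.95 with DMSO, -0.34 with CSC, -0.43 with BaP and -0.73 with NNK. Of all genes, 7.16% were called with DMSO, 4.87% with CSC, 7.25% with BaP and 3.91% with NNK. DESeq2's Wald test did not call the CYP1A1 difference with CSC (adjusted p = 0.679). NQO1, a joint target of NRF2 and AhR, differed from HcRed by 0.50 (SE 0.11, adjusted p = 0.00175) with DMSO and by 0.42 (SE 0.13, adjusted p = 0.0362) with NNK, and by 0.13 (SE 0.086, adjusted p = 0.459) and 0.16 (SE 0.093, adjusted p = 0.337) with CSC and BaP.

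PIK3CA overexpression went with the lowest CYP1A1 and CYP1B1 levels of any line under CSC and BaP. PIK3CA encodes the catalytic subunit of a growth-signalling lipid kinase. CYP1B1 differed from HcRed by -1.08 (SE 0.15, adjusted p = 5.70e-08) with DMSO, -1.62 (SE 0.076, adjusted p = 6.23e-56) with CSC, -1.48 (SE 0.078, adjusted p = 1.98e-30) with BaP and -1.02 (SE 0.12, adjusted p = 1.002e-12) with NNK, with no overlap of samples. The CSC value is a level 0.326 times that of HcRed. CYP1A1 differed by -1.31 (SE 0.11, adjusted p = 4.72e-24) with CSC and by -1.05 (SE 0.12, adjusted p = 2.32e-11) with BaP, again with no overlap, and by 0.07 (SE 0.24, adjusted p = 0.915) with NNK. The share of genes called was 8.60% with DMSO, 10.3% with CSC, 7.12% with BaP and 6.62% with NNK. AHR itself was lower than in HcRed in this line under the 3 chemicals, with differences of -0.41 (SE 0.10, adjusted p = 0.00291) with CSC, -0.42 (SE 0.11, adjusted p = 0.00809) with BaP and -0.45 (SE 0.13, adjusted p = 0.0129) with NNK, and a value of -0.30 (SE 0.10, adjusted p = 0.0517) with DMSO. AHRR differed by -1.11 (SE 0.36, adjusted p = 0.0291) with CSC and -1.44 (SE 0.41, adjusted p = 0.0176) with BaP, and its values were 0.68 (SE 0.60, adjusted p = 0.595) with NNK and 0.11 (SE 0.85, adjusted p = 0.965) with DMSO. TIPARP did not go the same way, at -0.06 (SE 0.085, adjusted p = 0.740) with CSC, -0.20 (SE 0.091, adjusted p = 0.186) with BaP and 0.42 (SE 0.13, adjusted p = 0.0234) with NNK. The part of AHR in the CYP1 difference was not tested.

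The FGFR1 and NRG1 lines both had lower CYP1B1 than HcRed with CSC and BaP. The GFP control line was lower than HcRed too, with log2 differences of -0.34 with CSC, -0.43 with BaP and -0.73 with NNK. FGFR1 encodes a growth factor receptor and NRG1 a ligand of the ERBB receptors. In FGFR1, CYP1B1 was lower, at -0.44 (SE 0.078, adjusted p = 3.98e-05) with CSC, -0.57 (SE 0.087, adjusted p = 6.54e-06) with BaP and -0.64 (SE 0.11, adjusted p = 8.96e-06) with NNK, and the DMSO difference was -0.43 (SE 0.14, adjusted p = 0.0818). CYP1A1 differed by 0.13 (SE 0.11, adjusted p = 0.645), 0.39 (SE 0.11, adjusted p = 0.0509) and 0.44 (SE 0.24, adjusted p = 0.416) under the 3 chemicals, none past the threshold. The BaP difference passed with DESeq2's size factors (adjusted p = 0.0320), at a mean count of at least 10 (adjusted p = 0.0317), at 1 read in any sample (adjusted p = 0.0247) and without HcRed replicate 3 (adjusted p = 0.00859). The share of genes called in FGFR1 was small, at 1.86% with DMSO, 2.83% with CSC, 1.42% with BaP and 2.47% with NNK. In NRG1 both genes were lower with CSC, CYP1A1 at -0.73 (SE 0.12, adjusted p = 8.45e-07) and CYP1B1 at -0.35 (SE 0.067, adjusted p = 1.22e-04). The CYP1A1 samples of NRG1 and HcRed overlapped with CSC. With BaP both genes were lower, at -0.52 (SE 0.13, adjusted p = 0.0235) and -0.50 (SE 0.087, adjusted p = 2.82e-04). With DMSO and NNK CYP1B1 in NRG1 differed by -0.17 (SE 0.13, adjusted p = 0.651) and 0.21 (SE 0.10, adjusted p = 0.338) and CYP1A1 with NNK by 0.42 (SE 0.23, adjusted p = 0.411). The share called in NRG1 was 2.04%, 2.31%, 1.52% and 1.85% in the order DMSO, CSC, BaP and NNK. The BaP call on CYP1A1 in NRG1 was lost in 4 of 6 fits that leave out a sample (without HcRed replicate 2 or 3 or NRG1 replicate 1 or 2, adjusted p = 0.0748 to 0.106). DESeq2's Wald test called neither gene in NRG1 with CSC (adjusted p = 0.730 and 0.0564) nor CYP1A1 with BaP (0.205).

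The 2 control lines differed from each other as much as many lines differed from their control. CYP1A1 was higher in GFP than in HcRed by 0.55 (SE 0.10, adjusted p = 3.22e-05) with CSC, 0.55 (SE 0.10, adjusted p = 6.55e-06) with BaP and 1.17 (SE 0.23, adjusted p = 2.10e-05) with NNK, and with DMSO by the ratio given above (adjusted p = 0.00557). CYP1B1 was lower, with log2 differences of -0.95 (SE 0.15, adjusted p = 5.35e-07) with DMSO, -0.34 (SE 0.058, adjusted p = 7.10e-06) with CSC, -0.43 (SE 0.074, adjusted p = 1.93e-06) with BaP and -0.73 (SE 0.12, adjusted p = 4.58e-07) with NNK. The signs of the 2 genes were opposite under each treatment, and the CYP1A1 samples of the 2 controls overlapped with CSC. Between the 2 controls 17.7% of genes were called with DMSO, 22.0% with CSC, 15.0% with BaP and 12.5% with NNK. The CYP1A1 differences with DMSO and CSC did not pass with DESeq2's Wald test (adjusted p = 0.0646 and 0.326), and that with DMSO was lost without HcRed replicate 3 (adjusted p = 0.0676). A knockout line and an overexpression line are therefore each set beside their own control only.

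**Figure D4:**
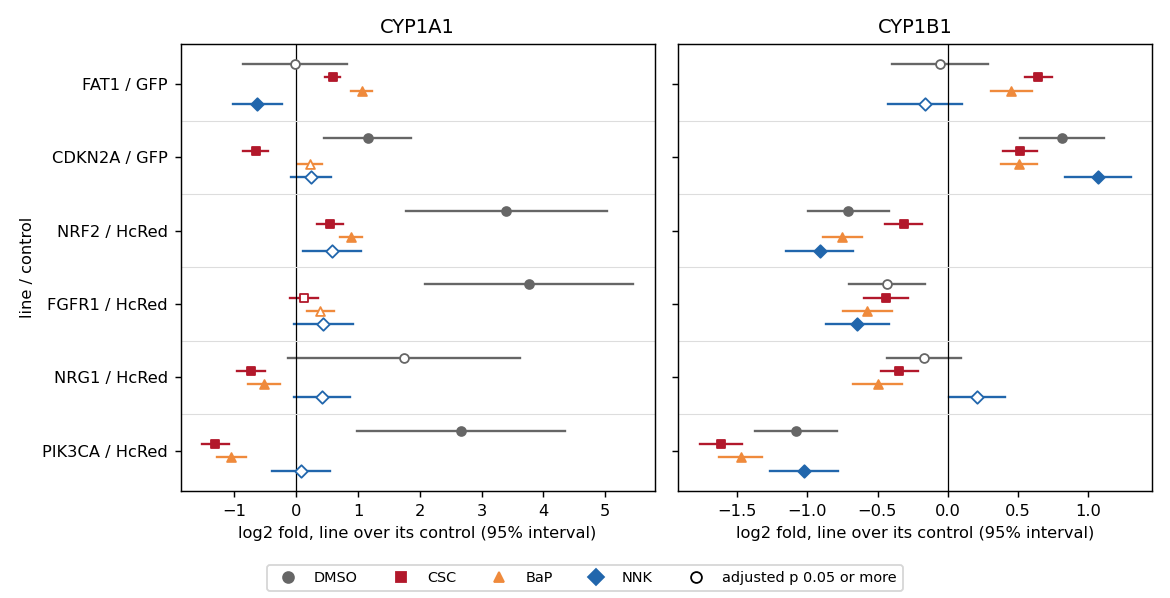
Log2 fold of each line over its control for CYP1A1 and CYP1B1 under the 4 treatments, with 95% intervals from limma-voom, filled where the adjusted p is under 0.05. CYP1B1 lies below 0 in PIK3CA, NRF2 and FGFR1 under all 4 treatments and above 0 in CDKN2A, and the DMSO values of CYP1A1 against HcRed rest on 2 HcRed reads.

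Whether the response to a chemical differed between a line and its control was asked with an interaction term, from limma-voom fitted to the 4 groups. Of 18 terms, 1 passed for CYP1A1 and 0 for CYP1B1, where 0.112% of all gene tests passed for CSC, 0.0351% for BaP and 0.0921% for NNK. The term that passed was the CSC response of CDKN2A against that of GFP, -1.78 on the log2 scale for CYP1A1 (95% interval -2.65 to -0.90, adjusted p = 0.0448). CYP1A1 rose 18.1-fold with CSC in CDKN2A and 62.8-fold in GFP. The call was lost in 7 of 12 fits that leave out a sample, with adjusted p up to 0.134 (without GFP-DMSO replicate 2), in the fit of all 95 samples (adjusted p = 0.187) and with the filter of at least 1 read in any sample (adjusted p = 0.264). For FAT1, the terms were 0.58 with CSC (adjusted p = 0.787), 1.10 with BaP (adjusted p = 0.836) and -0.63 with NNK (adjusted p = 0.875), so its larger CYP1A1 responses to CSC and BaP were not shown to differ from those of GFP. For CYP1B1 the smallest adjusted p among the terms was 0.167, for the CSC response of FAT1 (0.68, 95% interval 0.32 to 1.04), a term that passed with a replicate block (adjusted p = 0.0403). In PIK3CA, which had the lowest CYP1B1, the CYP1B1 terms were -0.54 with CSC (95% interval -0.88 to -0.19, adjusted p = 0.793), -0.39 with BaP (-0.73 to -0.05, adjusted p = 0.841) and 0.06 with NNK (-0.33 to 0.45, adjusted p = 0.990).

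The 12 CYP1A1 terms against HcRed were all negative, from -4.00 to -1.33, with adjusted p from 0.0987 to 0.996. All of them share the HcRed DMSO samples with their 2 reads, so they are not independent of each other. Their calls also depended on the tool. Over the 18 terms, edgeR's quasi-likelihood test passed 6 for CYP1A1, a filter at a mean count of 10 passed 6, a filter of at least 1 read in any sample passed 4, and the fit of all 95 samples passed 0.

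The other listed targets of AhR moved with the CYP1 genes. Of 9 listed genes 8 were in the fit over all genotypes (UGT1A1 was too low), of which 8 rose with CSC, 8 with BaP and 7 with NNK, and none fell. The shares of all genes tested that rose and fell were 28.0% and 27.1% with CSC, 26.1% and 24.9% with BaP, and 26.1% and 25.7% with NNK. The median log2 difference of the list was 1.27 with CSC, 1.03 with BaP and 0.65 with NNK, beside 0.0035, 0.01 and 0.0012 over all genes tested. AHRR, the repressor, had log2 differences of 2.69, 2.94 and 1.68 with CSC, BaP and NNK (adjusted p = 1.14e-22, 1.20e-25 and 5.08e-10). TIPARP, an ADP-ribosyltransferase that dampens AhR, had 1.61, 1.48 and 0.73 (adjusted p = 2.12e-59, 4.70e-54 and 1.85e-22). ALDH3A1, an aldehyde dehydrogenase, had 2.06, 2.28 and 1.119, more with BaP than with CSC in value, and NQO1, a quinone reductase, had 1.37, 1.05 and 0.39. Both passed with each chemical, with adjusted p of at most 2.25e-10 (limma-voom). UGT1A6, a glucuronosyltransferase that shares exons with other UGT1A genes, was the gene that did not pass with NNK (0.42, SE 0.19, adjusted p = 0.0633). Every member of the list lay below CYP1A1 and CYP1B1 in its log2 rise with CSC and BaP, and with NNK AHRR lay between the 2.

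The receptor and its partner did not pass. AHR had log2 differences of -0.06, -0.04 and -0.04 with CSC, BaP and NNK (adjusted p = 0.206, 0.411 and 0.473), at a mean of 173 reads per sample, and ARNT had -0.05, -0.04 and -0.04 (adjusted p = 0.426, 0.543 and 0.612). The shares of all genes tested that rose and fell were 28.0% and 27.1% with CSC, 26.1% and 24.9% with BaP, and 26.1% and 25.7% with NNK. Of the 7 genes listed for the complex, 2 rose and 3 fell with CSC, 1 and 3 with BaP, and 2 and 3 with NNK, with list medians of -0.06, -0.04 and -0.04. AHRR had the largest rise, and ARNT2, a relative of ARNT, had 0.90, 0.13 and 0.53 (adjusted p = 1.75e-05, 0.624 and 0.0176). The 3 that fell were the chaperones HSP90AA1, HSP90AB1 and PTGES3, which serve many proteins besides AhR. HSP90AA1 had -0.27, -0.33 and -0.34, and HSP90AB1 had -0.29, -0.22 and -0.19, the largest fall with CSC. These falls were small beside the CYP1 rises.

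Some of the genes that work with P450 enzymes rose, by less than the CYP1 genes. Of 7 listed partners, 4 rose and 1 fell with CSC, 4 and 1 with BaP, and 4 and 0 with NNK, with list medians of 0.21, 0.36 and 0.17. Over all genes tested, 28.0% rose and 27.1% fell with CSC, 26.1% and 24.9% with BaP, and 26.1% and 25.7% with NNK. POR, the reductase that gives P450 enzymes their electrons, had log2 differences of 0.40, 0.46 and 0.50 (adjusted p = 3.43e-08, 5.72e-10 and 3.24e-11). EPHX1, the epoxide hydrolase that acts on the products of CYP1 enzymes, had 0.82, 0.74 and 0.61 (adjusted p = 2.56e-18, 3.64e-15 and 4.63e-11), the largest rise of the list with each chemical. ALAS1, the first enzyme of heme synthesis, had 0.21, 0.73 and 0.17, past the threshold with CSC and BaP. PGRMC1, a heme-binding partner, was the one that fell, with -0.13 with CSC and -0.13 with BaP. After a correction for GC content and length, chosen after seeing the data, 2 of the partners rose with CSC and 2 with NNK, and 0 fell with CSC or BaP.

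Of 32 other P450 genes of families 2, 3 and 4, 10 had enough reads. With CSC and BaP 2 of these rose, CYP4F11 and CYP2S1, with NNK 1 did (CYP2S1), and 0 fell with any chemical, beside the 28.0%, 26.1% and 26.1% of all genes that rose. CYP4F11, a fatty acid hydroxylase, had 1.91, 1.38 and 0.59 at a mean of 3.47 reads per sample (adjusted p = 6.86e-12, 1.00e-06 and 0.0555), and its reads may be shared with other CYP4F genes. CYP2S1, which is itself listed among the AhR targets, had 0.77, 0.46 and 0.47 (adjusted p = 8.72e-06, 0.0126 and 0.0110). The other 8 lay within -0.38 to 0.19 with CSC. The log2 rises of CYP1A1 and CYP1B1 were larger than those of the 10 other P450 genes tested with each chemical. At a filter of at least 1 read in any sample, 12 of the listed P450 genes were called higher with BaP, a filter that lets in genes with very few reads.

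**Figure D5:**
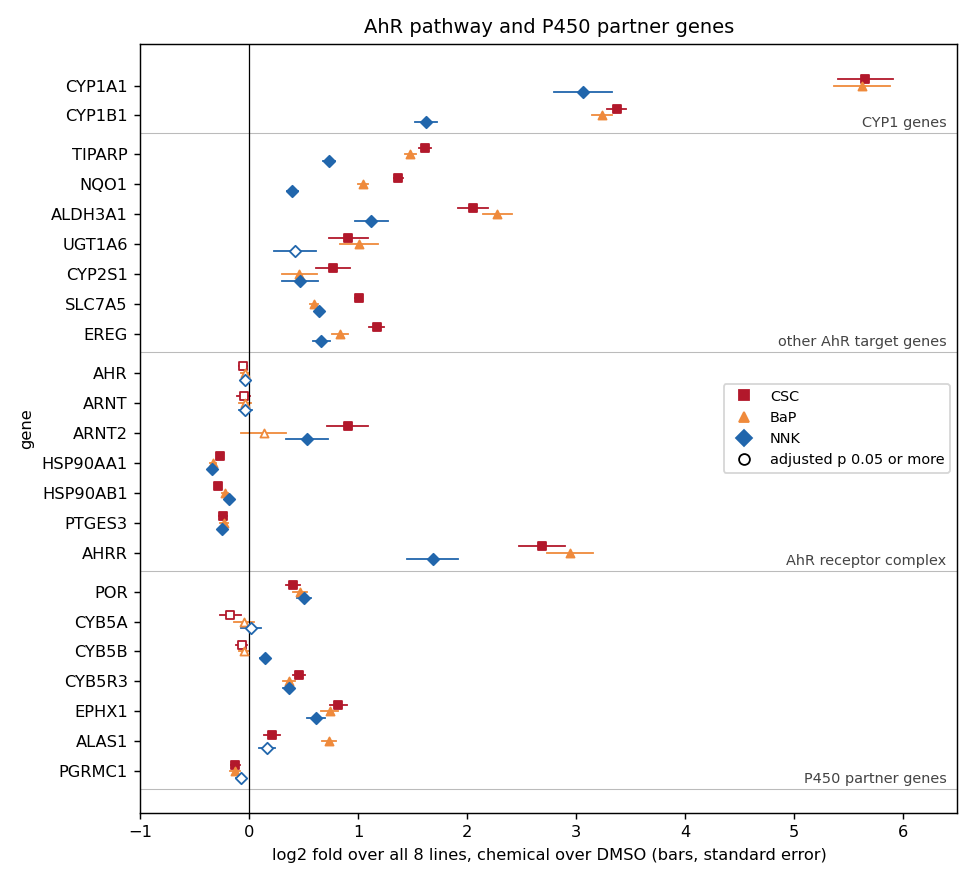
Log2 fold of each chemical over DMSO, over all 8 lines, for the CYP1 genes and the listed genes of the AhR pathway and of P450 partners, with bars of 1 standard error and filled points where the adjusted p is under 0.05. CYP1A1 (5.66 with CSC) and CYP1B1 (3.37) stand to the right, AHRR (2.69) follows, and AHR and ARNT lie near 0.

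Across the 32 combinations, the genes whose pattern was most like that of CYP1A1 and CYP1B1 included AHRR and TIPARP for both. Likeness was measured as Pearson's r over the 32 combination means of log2 CPM (prior count 2) among the 10062 genes whose mean count was 10 or more, and is a description, since the combinations share lines and treatments. The 5 genes most like CYP1A1 were AHRR (0.933), CYP1B1 (0.929), TIPARP (0.917), TPRA1 (0.904) and EDC3 (0.887). Those most like CYP1B1 were TIPARP (0.933), TPRA1 (0.931), CYP1A1 (0.929), MAFG (0.903) and AHRR (0.898). CYP1B1 held place 2 on the list of CYP1A1 and CYP1A1 place 3 on that of CYP1B1, and their own r over the 95 single samples was 0.921. AHRR and TIPARP appear on both lists, with TPRA1, a membrane protein gene that was in none of the listed pathways. MAFG, which encodes a small MAF partner of NRF2, appears on the list of CYP1B1 only. CYP1A2 had too few reads to be ranked.

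TIPARP and AHRR were also read within each line. TIPARP passed in 8 of 8 lines with CSC, 8 with BaP and 8 with NNK, as CYP1A1 and CYP1B1 did. Its log2 rise with CSC was between 1.41 (PIK3CA) and 2.001 (NRF2). AHRR passed in 8 of 8 lines with CSC, 7 with BaP and 3 with NNK (GFP, CDKN2A and PIK3CA), at a mean of 11.2 reads per sample over the series. Between lines, TIPARP was higher in CDKN2A than in GFP with DMSO (0.61, SE 0.11, adjusted p = 4.40e-06), CSC (0.59, SE 0.081, adjusted p = 5.31e-09) and NNK (0.57, SE 0.13, adjusted p = 2.12e-04), as CYP1B1 was and CYP1A1 was not with CSC and NNK, and its difference with BaP was 0.22 (SE 0.093, adjusted p = 0.0674). In FAT1, TIPARP was higher with CSC (0.20, SE 0.077, adjusted p = 0.0457) and AHRR with BaP (0.86, SE 0.31, adjusted p = 0.0351). Neither passed under the other treatments, with TIPARP at 0.03 with BaP, -0.24 with NNK and -0.21 with DMSO, and AHRR at 0.54 with CSC, -0.09 with NNK and 1.26 with DMSO (adjusted p = 0.161 to 0.943). NQO1 was lower in FAT1 than in GFP under all 4 treatments, at -1.07 (SE 0.14, adjusted p = 1.67e-07) with DMSO, -1.32 (SE 0.089, adjusted p = 2.23e-23) with CSC, -1.40 (SE 0.12, adjusted p = 1.69e-19) with BaP and -1.31 (SE 0.14, adjusted p = 4.66e-15) with NNK. NFE2L2 was so too, at -0.75 (SE 0.10, adjusted p = 1.73e-07), -0.68 (SE 0.099, adjusted p = 2.63e-08), -0.67 (SE 0.12, adjusted p = 1.04e-05) and -0.51 (SE 0.14, adjusted p = 0.00442) in the same order.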

How the data were processed

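The deposited files hold raw counts, whole numbers of single-end reads per gene and sample. Per the labels and the study's methods, the authors trimmed reads with cutadapt 1.12, checked them with FastQC 0.11.5, aligned them to hg19 with STAR 2.5.2b and counted them with featureCounts (Subread) over RefSeq genes. Nothing in the sources used here names molecular identifiers for SFL libraries, so a count may include PCR copies. Groups came from the sample labels. The members, gene lists and tests were chosen with earlier results of these data known. Counts were normalised by TMM (edgeR 4.0.16) and tested with voom and limma 3.58.1 in R 4.3.3 on genes with a mean count above 1, with Benjamini-Hochberg adjustment over all genes tested and a threshold of 0.05. Depth was 287446 to 2116383 reads per sample, which limits genes of few reads. CYP1A2, too low for the fit over all genotypes, was tested there by permutation. Named by rule were the members, AHR, ARNT, AHRR, TIPARP, NQO1, POR, EPHX1, NFE2L2, the listed genes with the largest rise and fall for each chemical, and the 5 genes most like CYP1A1 and CYP1B1. Other genes were named after their values were seen, and 1 gene fixed for the list of the receptor complex is not reported here and was left out of its counts. As alternatives, the tests were repeated with edgeR's quasi-likelihood method, with DESeq2 1.42.0 and with its size factors, and further with 2 filters on low counts, a replicate block, each sample left out, the 10000 most variable genes, the NRF2 line left out, a fit of all samples and, chosen after seeing the data, a correction for GC content and length (loess span 0.3, known for 92.1% of genes tested). Promoter sequences were read from RefSeq tables and loci from the GRCh37 annotation. Fits were tested on simulated data.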

Additional observations from a re-analysis of the deposited data

Results flagged for a closer look

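The CSC response of CYP1A1 was smaller in CDKN2A than in GFP, by an interaction term of -1.78 on the log2 scale (SE 0.44, limma-voom adjusted p = 0.0448), and it stands here because the test of the difference between the 2 lines passed. Its counts were 21, 18 and 17 reads with DMSO and 121, 144 and 356 with CSC in CDKN2A, and 11, 5 and 10 and 529, 825 and 406 in GFP. The term kept its sign in all 12 fits that leave out a sample, from -2.13 to -1.52, and missed the threshold in 7 of them. It also missed it with the filter of at least 1 read in any sample (adjusted p = 0.264) and in the fit of all 95 samples (adjusted p = 0.187). The part of the DMSO level, which was higher in CDKN2A, was not tested.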

How the results depend on the processing

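The rise of CYP1A1 and CYP1B1 with each chemical kept its direction and stayed past the threshold under every alternative run, over all genotypes and within lines. CYP1A1 calls against a control line were less stable, and the calls lost or gained under other settings than the block are given beside the results, with 6 of 24 past the threshold by DESeq2's Wald test. The CYP1B1 difference of CSC from BaP passed with edgeR's quasi-likelihood test, at 0.154. CYP1A1 interaction calls numbered 6 with edgeR, 6 at a mean count of at least 10, 4 at 1 read in any sample and 0 in the fit of all 95 samples. The difference of FAT1 from GFP in CYP1A1 with DMSO changed sign in that fit (0.0035). For other P450 genes, 0 rose with any chemical at a mean count of at least 10. That filter leaves out CYP4F11 and CYP2S1 (means of 3.47 and 8.23 reads), so their rise was not tested there. With 1 read in any sample 12 rose with BaP and 9 with NNK. Without the NRF2 line 2 rose with NNK, and after the GC and length correction 0 did. Of the receptor complex, 1 gene rose with NNK by edgeR and by DESeq2, and 2 rose with BaP after the GC and length correction. At a mean count of at least 10, a filter that leaves out ARNT2 (mean of 6.01 reads), 1 rose with CSC and 1 with NNK. Among the 10000 most variable genes, which tests fewer genes, 0 of the receptor complex fell with each chemical and 2 P450 partners rose with each, while 0 fell with CSC and 0 with BaP. After the GC and length correction 2 partners rose with CSC and 2 with NNK, and 0 fell with CSC or BaP. With each sample left out in turn, counts ranged from 0 to 2 (CYP1A1, interaction comparisons), 1 to 2 (P450 partner genes, lower with CSC), 1 to 2 (other P450 genes, higher with NNK), 0 to 1 (other P450 genes, lower with NNK). Log2 values that changed sign in such fits, none of them past the threshold, ranged from -0.123 to 0.325 (CYP1A1, CSC: FGFR1 vs HcRed), -0.274 to 0.212 (CYP1A1, DMSO: FAT1 vs GFP), -0.0198 to 0.738 (CYP1A1, NNK: FGFR1 vs HcRed), -0.0502 to 0.260 (CYP1A1, NNK: PIK3CA vs HcRed), -0.0965 to 0.0105 (CYP1B1, BaP response: NRF2 vs HcRed), -0.153 to 0.0863 (CYP1B1, CSC response: FGFR1 vs HcRed), -0.178 to 0.131 (CYP1B1, DMSO: FAT1 vs GFP), -0.312 to 0.0242 (CYP1B1, NNK response: FAT1 vs GFP), -0.104 to 0.211 (CYP1B1, NNK response: PIK3CA vs HcRed). Replicate numbers were not treated as pairs in the main fits. Over 142 same-numbered pairs, the correlation of deviations from the group means was -0.11 to 0.18 (median 0.02), and in 14 of 46 comparisons every sample correlated best with its own number. Whether the numbers pair the samples is not settled by these values. With the replicate block, 7 CYP1A1 and 1 CYP1B1 interactions passed, and no call over all genotypes was lost. Against a control line the block also called CYP1A1 in FGFR1 with CSC (adjusted p = 0.00452) and BaP (0.0128) and in CDKN2A with BaP (0.00377), and CYP1B1 in FGFR1 with DMSO (0.0426). Depth limits CYP1A1 with DMSO and CYP1A2 most, since single reads decide their levels.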

Other observations

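EDC3, which encodes an enhancer of mRNA decapping, was among the genes most like CYP1A1 and is its nearest neighbour on the far side, 23250 bases away. It held place 5 over the 32 combination means but place 34 over the 95 single samples (r 0.723). The neighbours of the CYP1 loci were therefore read after these values were seen. Neighbours here are the nearest protein-coding genes that do not overlap the locus and whose symbol is in the count tables. A gene that overlaps a locus or is listed under another symbol was not read. EDC3 had log2 differences from DMSO of 0.67, 0.71 and 0.43 with CSC, BaP and NNK (limma-voom over all genotypes, adjusted p = 2.85e-15, 3.06e-16 and 4.22e-07). On the other side, 25473 bases beyond CYP1A2, CSK, a kinase that restrains SRC family kinases, had 0.67, 0.63 and 0.51 (adjusted p = 2.54e-17, 1.89e-15 and 7.98e-11). CLK3, a splicing kinase next beyond EDC3, had 0.55, 0.43 and 0.23 (adjusted p = 1.13e-08, 1.28e-05 and 0.0285). LMAN1L, next beyond CSK, had a mean of 0.105 reads per sample and was not in the fit. All 3 neighbours in the fit at the CYP1A locus thus rose with each chemical. Around CYP1B1, whose nearest neighbours by this rule lie 184052 bases (ATL2) and 328505 bases (CDC42EP3) away, none of the neighbours read rose. ATL2 had -0.18, -0.15 and -0.26 (adjusted p = 6.99e-05, 0.00117 and 9.73e-08) and CDC42EP3 had -0.10, -0.16 and -0.18 (adjusted p = 0.106, 0.0110 and 0.00354), while QPCT had 0.35, 0.28 and 0.19 and HNRNPLL -0.01, -0.02 and 0.06, neither past the threshold. Against the 28.0% of all genes that were higher with CSC, 3 of 3 is a count of genes chosen by position after EDC3 was seen, and no test was made of it.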
